A study of Mus musculus with 4 samples.

Results

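Mature transfer RNAs (tRNAs) carry amino acids to the ribosome and read codons with the 3 bases of the anticodon, which sit in a loop at the end of the anticodon stem. Ribonucleases, of which angiogenin is the best known in stress, can cut a tRNA in the anticodon loop, and the piece from the mature 5' end to the cut is a 5' tRNA fragment (tiRNA). Such fragments are abundant in mouse sperm, where those of tRNA-Gly-GCC and tRNA-Glu-CTC are among the leading small RNAs. The following describes the 5' fragments of 7 tRNAs in the testis, tRNA-Glu-CTC, tRNA-Glu-TTC, tRNA-Lys-CTT, tRNA-Lys-TTT, tRNA-Val-AAC, tRNA-His-GTG and tRNA-Asp-GTC. They are out of 43 anticodon families of nuclear tRNA genes without introns found in the mouse genome. A read counted as a member when the authors' class was ncRNA, its length was 25 nt or more, and its first 18 bases equalled those of a gene of 1 of the 7 tRNAs. This gave 264366 reads of 248 distinct sequences, 75 of them with over 100 reads.

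Small RNAs of whole testes from mice 16 days old were sequenced, with 2 libraries of Hsf5 knockdown mice and 2 of wild type mice. Hsf5 encodes heat shock factor 5, a transcription factor of meiotic male germ cells. The labels say neither how the knockdown was made nor in which cells it acts, and the deposited table names those libraries as knockouts. Small RNA reads do not measure Hsf5 mRNA, so the knockdown itself was not checked. The labels call the samples biological replicates, with no litter or day, and p-values measure the spread between these samples only. The libraries held 9619666 and 10900306 counted reads in knockdown replicates 1 and 2, and 11117460 and 9260452 reads in wild type replicates 1 and 2. A count of 0 allows at most 0.324 RPM (reads per 1000000 counted reads) in the shallowest of them.

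Facts of the whole libraries bear on every level below. Reads of 29 to 31 nt, which in testis are mostly piRNAs, made up 82473 RPM in knockdown replicate 1, and 170495 to 242130 RPM in the other 3 libraries, so that library stood apart. Longer ncRNA-class reads without the 7 tRNAs and without tRNA-Gly-GCC came to 27796 and 21125 RPM in knockdown replicates 1 and 2, against 74259 and 33024 RPM in wild type replicates 1 and 2. Of the marker lists, the 5 spermatocyte miRNAs all had reads. They summed to 1309 to 1713 RPM in the knockdown libraries and 1126 to 1578 RPM in the wild type. Most of each sum was miR-34c-5p, with 833 to 1206 RPM. Of the list, miR-34b-3p, miR-34c-3p and miR-449a-5p were lowest in knockdown replicate 2, at 93.6, 19.2 and 8.81 RPM. The other members, miR-34c-5p and miR-34b-5p, were not lowest there. All 8 blood miRNAs had reads, with 65.7 and 16.5 RPM in knockdown replicates 1 and 2 and 54.1 and 48.9 RPM in wild type replicates 1 and 2. The 3 muscle miRNAs summed to 297 and 332 RPM in knockdown and 318 and 240 RPM in wild type, and the liver miRNA stayed under 1 RPM in all 4 libraries. In bulk tissue, fewer cells of a type and less RNA per cell cannot be told apart.

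The gene sequences of 6 of the tRNAs show where the cuts fall. Each is the gene copy on the named chromosome of GRCm39, given in lower case without the CCA tail. The anticodon loop is in capitals, at bases 32 to 38, counted from 1 at the first base of the gene. The anticodon itself is at bases 34 to 36. In all, 71 genes of the 7 tRNAs were found, and 64 of them carry a start that was seen in the reads.
tRNA-Glu-TTC, chr13:23647705-23647776, plus strand: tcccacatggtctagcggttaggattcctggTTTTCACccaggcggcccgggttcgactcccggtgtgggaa
tRNA-Lys-CTT, chr11:48724710-48724782, minus strand: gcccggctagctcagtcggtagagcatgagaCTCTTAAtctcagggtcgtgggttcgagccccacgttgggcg
tRNA-Lys-TTT, chr1:132961700-132961772, plus strand: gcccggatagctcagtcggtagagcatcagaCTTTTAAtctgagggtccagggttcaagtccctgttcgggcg
tRNA-Val-AAC, chr11:48747464-48747536, plus strand: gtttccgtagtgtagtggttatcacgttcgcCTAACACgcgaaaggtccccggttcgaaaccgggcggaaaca
tRNA-His-GTG, chr2:122205975-122206046, minus strand: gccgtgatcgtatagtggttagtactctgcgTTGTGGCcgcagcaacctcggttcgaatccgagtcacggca
tRNA-Asp-GTC, chr1:170864598-170864669, minus strand: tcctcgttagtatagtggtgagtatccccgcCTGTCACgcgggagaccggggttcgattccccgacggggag

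Starts are shared by some genes, and this limits the names. Of the reads of the 7 tRNAs, 99.8% were exact prefixes of a tRNA gene. Under the Glu-CTC start, 1868 reads matched Glu-TTC genes and no Glu-CTC gene, which is 0.997% of the reads counted for that tRNA. The Val start is also that of tRNA-Val-CAC. Of the Val reads that reach base 34, 2355 carried C there, as tRNA-Val-CAC does, and 41 carried A, all in sequences that match no gene found here. The A at that base of tRNA-Val-AAC is known to be changed to inosine, which is read as G, so base 34 does not tell how many reads came from tRNA-Val-AAC. Of the Val reads, 72.1% matched genes of both tRNAs, 21.1% those of tRNA-Val-CAC alone and 2.84% those of tRNA-Val-AAC alone. The other 478 reads (3.93%), of which 347 were in wild type replicate 1, matched no gene exactly. The fragments are called tRNA-Val (AAC or CAC) below. Mature tRNA-His carries an added guanosine before its first base. No ncRNA-class read with that base was found, so the start of the gene was used. Over all classes there were 0 and 3 such reads in knockdown, and 4 and 2 in wild type. The added base is not part of the gene, and how reads were matched is not given. The counts therefore do not show that the fragments lack it.

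The 7 tRNAs are listed here in 3 groups by abundance, whose order held within each of the 4 libraries. In these data 1 read is 1 fragment, so levels are not divided by length, but modified bases in a tRNA can hinder its capture. tRNA-Glu-CTC, which reads the glutamate codon GAG, led. It had 3590 and 7016 RPM in knockdown replicates 1 and 2, against 4702 and 2609 RPM in wild type replicates 1 and 2. Knockdown replicate 2 was highest and wild type replicate 2 lowest, and the groups overlapped. Glu-TTC, Lys-CTT, Val and His lay between 109 and 1103 RPM in all libraries. tRNA-Asp-GTC, with 51.4 to 175 RPM, and tRNA-Lys-TTT, with 3.43 to 12.7 RPM, were the least abundant. The ranges of His and Asp overlapped, so neighbours in this order did not all differ beyond their spread. Of 264366 reads, tRNA-Glu-CTC gave 187439 and tRNA-Lys-TTT 271.

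**Figure D1:**
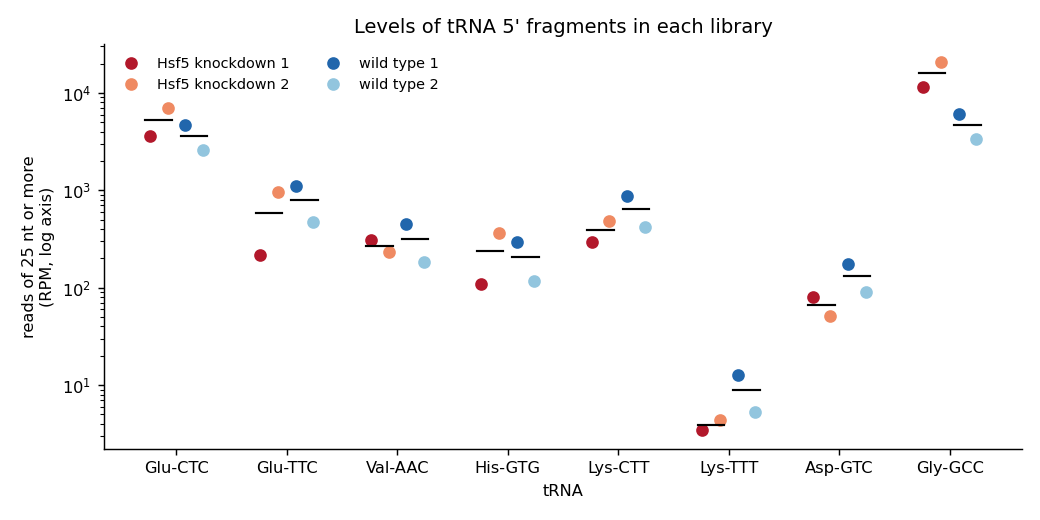
Level of the fragments of 25 nt or more of each tRNA (RPM, log axis) in the Hsf5 knockdown libraries (left in each group) and the wild type libraries (right); points are libraries and bars are group means (n = 2 each). In the 7 tRNAs, Lys-TTT and Asp-GTC have both knockdown points under both wild type points, as 63.9% of the 3027 starts tested do. Gly-GCC, summed over its starts and shown for comparison, has both above, as 0.132% of those single starts do.

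tRNA-Glu-TTC, the partner of tRNA-Glu-CTC that reads GAA codons, had 218 and 954 RPM in knockdown, against 1103 and 476 RPM in wild type, and the groups overlapped. The fragments came from 2 kinds of gene that differ at base 6. The kind with C there, of 4 identical genes, made 66.7% and 67.7% of the reads in knockdown, and 70.5% and 69.0% in wild type. Glu-CTC exceeded Glu-TTC by 16.4 and 7.35 times in the knockdown libraries, against 4.26 and 5.48 times in the wild type. The ratio was thus higher in both knockdown libraries, but with 2 libraries against 2 an exact two-sided permutation test, with 6 assignments, cannot go below p = 0.33. No share or ratio below can pass 0.05 for that reason.

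tRNA-Lys-CTT, which reads the lysine codon AAG, had 298 and 482 RPM in knockdown, against 874 and 424 RPM in wild type. Its 2 kinds of gene differ at base 29, and reads with A there were 71.9% and 68.8% of those that reach it in knockdown, and 68.8% and 74.4% in wild type. tRNA-Lys-TTT, which reads AAA, had 3.43 and 4.40 RPM in knockdown, against 12.7 and 5.29 RPM in wild type. Both knockdown libraries were below both wild type libraries, on 33 and 48 reads against 141 and 49 reads.

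Val fragments (AAC or CAC) had 307 and 234 RPM in knockdown, against 447 and 184 RPM in wild type, and tRNA-His-GTG had 109 and 367 RPM, against 297 and 116 RPM. In both, the groups overlapped. tRNA-Asp-GTC, the tRNA of aspartate, had 81.1 and 51.4 RPM in knockdown, against 175 and 91.1 RPM in wild type, with both knockdown libraries below both wild type libraries.

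Across the whole table of 18-base starts of ncRNA-class reads, 3027 starts were tested with edgeR's quasi-likelihood test on counts scaled to all counted reads. At an adjusted p under 0.05 it called none of them, 0% of the starts tested. Before adjustment, 1 start was higher and 75 were lower in knockdown at p under 0.05. DESeq2 set its own scaling from the ncRNA starts, with a median log2 fold change of 0.04 over them. It thus differs from edgeR here in scaling as well as in test. DESeq2 called 10, all higher. Without knockdown replicate 1 edgeR called 59 starts, all lower. None of the 7 tRNAs was called by edgeR. tRNA-Glu-CTC had a log2 fold change of 0.54 (SE 0.99) with an adjusted p of 0.677 in edgeR, and DESeq2 gave 2.58 with an adjusted p of 0.0379. The others had edgeR log2 fold changes of 0.20 (His), -0.22 (Val), -0.43 (Glu-TTC), -0.73 (Lys-CTT), -1.01 (Asp) and -1.20 (Lys-TTT), with SEs of 1.05 to 1.23 and adjusted p-values of 0.508 to 0.885.

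These directions depend on the scaling. The median log2 fold change over all 3027 starts was -1.48, with 94 higher and 2933 lower, and that of the 7 tRNAs was -0.43, with 2 higher and 5 lower. With TMM factors, which set the median start near 0, all 7 were higher in knockdown, with a median of 1.55, and none was called. In 1933 starts, 63.9% of those tested, the knockdown libraries were both lower than the wild type libraries, and in 4, 0.132%, both were higher. Of the 7 tRNAs, 2 were below and 0 above. Single libraries decided some signs. Without knockdown replicate 2 the log2 fold change of Glu-CTC was -0.026 and that of His -0.92. Without knockdown replicate 1 that of Glu-TTC was 0.27, and without wild type replicate 1 those of Glu-TTC and Val were 0.30 and 0.56. Without wild type replicate 2 that of His was -0.32. Those of Lys-CTT, Asp and Lys-TTT kept their sign but not their size, with -0.12, -0.46 and -0.43 without wild type replicate 1 and -1.16, -1.40 and -1.69 without wild type replicate 2. Without knockdown replicate 1 that of Lys-CTT was -0.43, and without knockdown replicate 2 it was -1.12. Knockdown replicate 2, highest in Glu-CTC and His, also had the lowest blood miRNA sum, and the part of that in these levels was not tested. All of the blood list but miR-451a were lowest there. For miR-451a it had 5.14 RPM, against 5.04 and 4.97 RPM in wild type.

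Summed, the 7 tRNAs had 4607 and 9108 RPM in knockdown replicates 1 and 2, against 7610 and 3906 RPM in wild type replicates 1 and 2. Of all ncRNA-class reads of 25 nt or more they made 10.5% and 17.9% in knockdown, against 8.65% and 9.70% in wild type. Both knockdown shares were above both wild type shares (exact permutation test, p = 0.33). tRNA-Gly-GCC, summed over its starts, had 11550 and 20591 RPM in knockdown, against 6147 and 3326 RPM in wild type, with no overlap. Its main start had 10994 and 19232 RPM in knockdown, against 4882 and 2714 RPM in wild type. Another had 556 and 1360 RPM in knockdown, against 1265 and 612 RPM in wild type, and there the groups overlapped. Glu-CTC had 0.311 and 0.341 reads per read of Gly-GCC in knockdown, and 0.765 and 0.784 in wild type. The difference, -0.45, was between -0.46 and -0.43 with any 1 library left out (exact permutation test, p = 0.33).

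**Figure D2:**
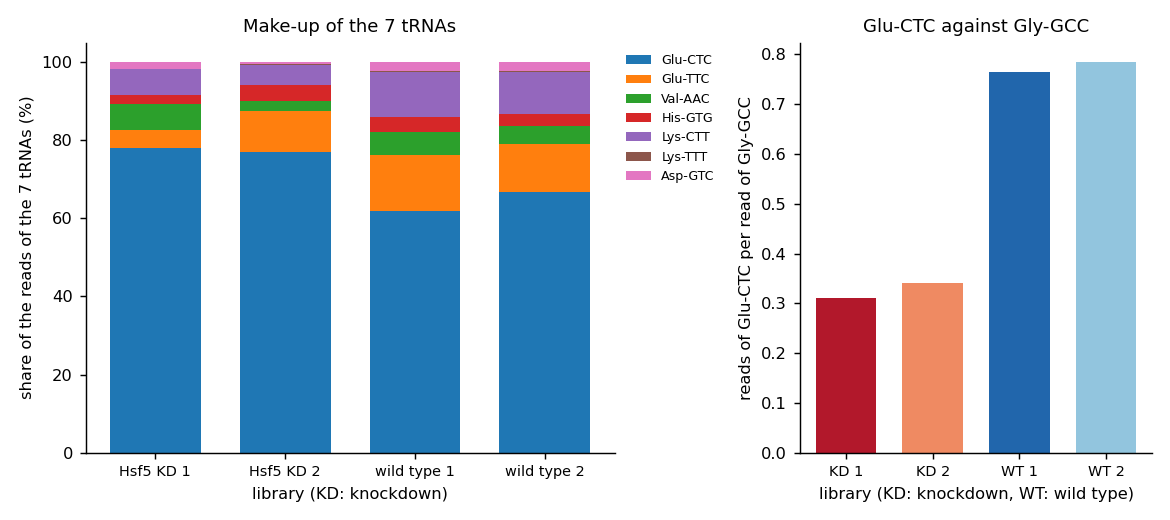
Left, share of the reads of the 7 tRNAs given by each tRNA in each library (bars sum to 100%); right, reads of Glu-CTC per read of Gly-GCC in each library, knockdown libraries left of wild type. Glu-CTC takes 77.9% and 77.0% of the reads in knockdown, against 61.8% and 66.8% in wild type.

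The make-up of the 7 tRNAs is given by each tRNA's share of their reads. Glu-CTC gave 77.9% and 77.0% of their reads in knockdown, against 61.8% and 66.8% in wild type, and Lys-CTT gave 6.47% and 5.29%, against 11.5% and 10.9%. Glu-TTC gave 4.74% and 10.5% in knockdown, against 14.5% and 12.2% in wild type. The exact permutation test gave p = 0.33 for each of the Glu-CTC and Lys-CTT shares, and with 1 library left out the Glu-CTC difference stayed between 10.7 and 15.7 percentage points. Shares within a set are tied to each other, since the rest of it falls as 1 member takes more.

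The 3' ends were placed in 4 zones of the tRNA: the D arm, up to base 26, the 5' strand of the anticodon stem, bases 27 to 31, the anticodon loop, bases 32 to 38, and past it. The loop held 54.7% and 77.2% of the reads of the 7 tRNAs in knockdown replicates 1 and 2, and 77.3% and 76.2% in wild type replicates 1 and 2. Knockdown replicate 1 had 43.02% of its pooled reads ending in the stem, against 20.5% to 21.9% in the other 3 libraries. Glu-CTC gave most of the pooled reads and had 47.9% stem ends in that library, against 22.6% to 22.8% in the others. Glu-TTC, Lys-CTT and Asp were also highest there, at 22.9%, 13.9% and 33.2%, though Asp had 30.1% in wild type replicate 2. Val, His and Lys-TTT, at 19.5%, 75.6% and 30.3%, were not highest there. Wild type replicate 2 had 19.98% for Val and 44.9% for Lys-TTT, and wild type replicate 1 had 81.8% for His. Ends past the loop made at most 0.650% of pooled reads in any library. Knockdown replicate 1 was also the library low in 29 to 31 nt reads, and the part of that in its stem ends was not tested.

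tRNA-Glu-CTC ended at several neighbouring bases, and 3 forms each held over 10% of its reads. These differ by where they stop around the start of the loop: at base 31, before the loop, at base 33, or at base 34, the first base of the anticodon.

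The 34 nt length made 10.3% and 15.03% of the Glu-CTC reads in knockdown, against 31.3% and 35.8% in wild type, the largest difference in mean share among the lengths of this tRNA. The 31 nt length, which stops at the last base of the stem, made 21.6% and 10.8% in knockdown, against 5.10% and 6.63% in wild type. The 33 nt length made 24.3% and 44.04% in knockdown, against 22.9% and 24.8% in wild type, so the groups overlapped, with knockdown replicate 2 apart. There were 2.37 and 2.93 reads of 33 nt per read of 34 nt in knockdown, against 0.733 and 0.695 in wild type (exact permutation test, p = 0.33). At these depths, 24156 to 76474 reads of the tRNA per library, the 95% Wilson interval of a share spans at most 1.21 percentage points and covers counting error only.

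**Figure D3:**
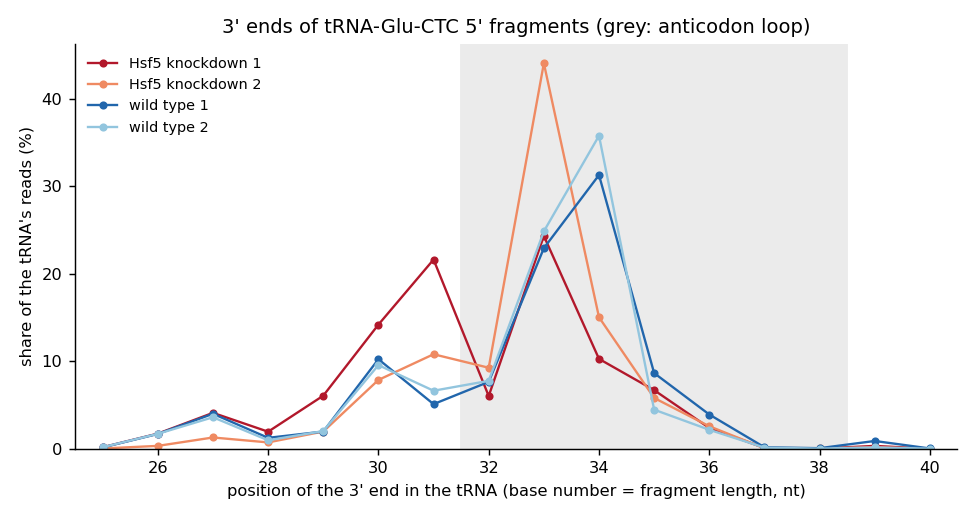
Share of the Glu-CTC reads (%) by the base number of the 3' end, which equals the fragment length, in the 2 knockdown and 2 wild type libraries; the grey band is the anticodon loop. At base 34 the knockdown libraries lie at 10.3% and 15.03% and the wild type at 31.3% and 35.8%, and at base 31 both knockdown libraries lie above.

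In RPM the 31 nt form of Glu-CTC had 775 and 755 in knockdown, against 235 and 171 in wild type, and the 34 nt form had 368 and 1050, against 1467 and 931. Among 103209 sequences tested over the whole table with edgeR's quasi-likelihood test and TMM factors, none was called, 0% of those tested. Before adjustment, 44 were higher and 688 lower in knockdown at p under 0.05. DESeq2 called 0. The 31 nt form had a log2 fold change of 1.75 (SE 0.58, unadjusted p = 0.0221, adjusted p = 1.0 by edgeR). The 34 nt form had -0.86 (SE 0.76) and the 33 nt form 1.16 (SE 0.82), which was -0.046 without knockdown replicate 2. Single libraries changed these calls. Without knockdown replicate 2, 13230 sequences were called, with adjusted p-values of 0.0066 for the 31 nt form (log2 fold change 1.82) and 0.0158 for the 34 nt form (-1.83) by edgeR. Without knockdown replicate 1, 9347 sequences were called, but neither of these forms, with edgeR adjusted p-values of 0.0817 for the 31 nt form (1.82) and 0.889 for the 34 nt form (-0.28). Without wild type replicate 1 the 34 nt form had -0.27, and without either wild type library in turn no sequence was called. With 1 knockdown library left out, the lone other one is assumed to vary like the wild type. Of the forms of the 7 tRNAs, 105 were tested, 30 higher and 75 lower, with a median log2 fold change of -0.47, against -0.18 over all sequences.

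tRNA-Glu-TTC was simpler. Its 33 nt length, which stops after base 33 as the 33 nt form of Glu-CTC does, made 51.4% and 70.0% of its reads in knockdown, against 74.3% and 69.8% in wild type. The groups overlapped, with knockdown replicate 1 low. Its forms of the 2 kinds of gene had the same 3' end.

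tRNA-Lys-CTT stopped further along, inside the anticodon, at bases 34, 35 and 36. Its 34 nt length made 29.3% and 42.7% of its reads in knockdown, against 28.1% and 32.1% in wild type. The 35 nt length made 22.5% and 22.8% in knockdown, against 31.7% and 27.0% in wild type, and the 36 nt length made 13.05% and 14.2%, against 20.8% and 17.3%. For both, the knockdown libraries were below the wild type (exact permutation test, p = 0.33). These lengths pool the 2 kinds of gene. With G at base 29, the 35 nt form made 13.4% and 16.3% in knockdown, against 16.3% and 12.5% in wild type. The 36 nt form of that kind made 6.35% and 6.97%, against 8.56% and 5.88%, so there the groups overlapped. That kind had 3314 reads at 35 nt and 1289 at 34 nt, while the kind with A had 2666 and 5778. A smaller Lys-CTT peak of 32 nt made 10.9% to 12.5% in every library. Of its 2522 reads, 2518 were of the kind with A at base 29. The forms of the most used gene kind of Lys-CTT show the steps, again with the loop in capitals.
Lys-CTT, 32 nt: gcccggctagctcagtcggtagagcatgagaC
Lys-CTT, 34 nt: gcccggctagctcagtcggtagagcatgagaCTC
Lys-CTT, 35 nt: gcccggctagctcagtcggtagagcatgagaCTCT
Lys-CTT, 36 nt: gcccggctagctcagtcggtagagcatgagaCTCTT

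The 35 nt form of this gene kind had 27.1 and 31.01 RPM in knockdown, against 135 and 61.6 RPM in wild type, with a log2 fold change of -1.94 (SE 0.76, unadjusted p = 0.0434, adjusted p = 1.0 by edgeR). Without knockdown replicate 2 it was -1.99, with an adjusted p of 0.0229 by edgeR, and without any of the other 3 libraries it was -2.32 to -1.01 and not called. tRNA-Lys-TTT, whose reads were few, had 33 nt as its main length, with 30.3% and 43.8% in knockdown and 25.5% and 36.7% in wild type. Its 31 nt form had 0 and 3 reads in knockdown, against 41 and 17 in wild type. The 0 of 33 reads allows a share of up to 9.09%.

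Val fragments and tRNA-Asp-GTC both ended mainly at base 32, the first base of the loop. For Val this length made 45.6% and 43.2% in knockdown, against 47.97% and 51.6% in wild type. Its 33 nt length made 16.7% and 26.6% in knockdown, against 11.9% and 12.7% in wild type. Its 36 nt length made 1.05% and 2.67% in knockdown, against 6.10% and 5.46% in wild type. Asp at 32 nt made 52.6% and 58.4% in knockdown, against 68.1% and 59.5% in wild type.

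tRNA-His-GTG had its main length at 31 nt, which ends before the loop, while over the pooled reads the main lengths of the other 6 tRNAs end inside it. For Lys-TTT this did not hold in wild type replicate 1, where 31 nt made 29.1% and 33 nt 25.5% of 141 reads. For His, the 31 nt length made 38.8% and 25.8% in knockdown, against 56.4% and 45.4% in wild type. The 33 nt length of His made 9.15% and 16.3% in knockdown, against 4.12% and 7.42% in wild type. A shorter form of 26 nt, ending in the D arm zone, stood out in knockdown replicate 2, with 1034 of 3995 reads (25.9%), beside 1032 reads of 31 nt, against 4.004% in knockdown replicate 1 and 1.94% and 3.53% in the wild type libraries.
His, 26 nt: gccgtgatcgtatagtggttagtact
His, 31 nt: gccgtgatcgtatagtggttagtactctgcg

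The 26 nt sequence had a log2 fold change of 3.32 (SE 1.5, adjusted p = 1.0 by edgeR), which was -0.28 without knockdown replicate 2. Without knockdown replicate 1 it was 4.23, with an adjusted p of 2.14e-05 by edgeR, so its size rests on a single knockdown library.

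**Figure D4:**
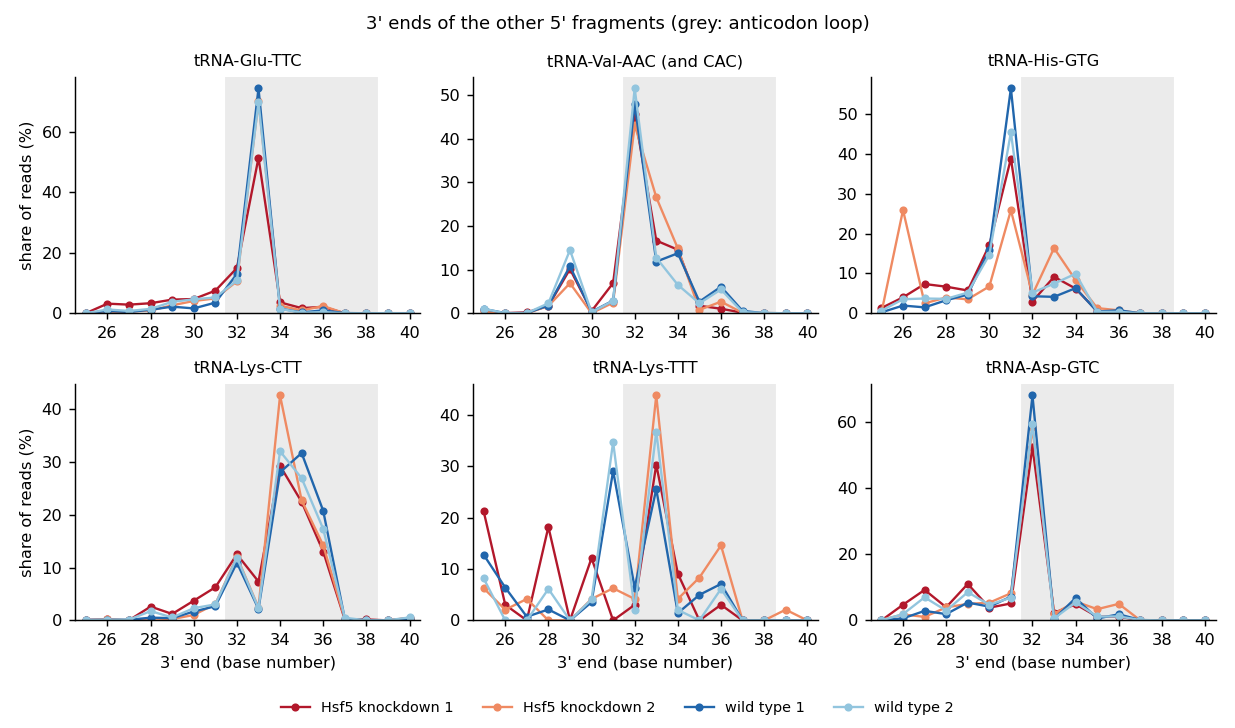
Share of each tRNA's reads (%) by the base number of the 3' end in the knockdown and wild type libraries; the grey band is the anticodon loop, and Lys-TTT rests on 33 to 141 reads per library. Glu-TTC peaks at base 33, Lys-CTT at bases 34 to 36, Val and Asp at base 32 and His at base 31, with a second His peak at base 26 in knockdown replicate 2.

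Over lengths that held 5% or more of a tRNA's reads, without Lys-TTT, 25 shares were compared. In 6 both knockdown libraries were above both wild type, and in 7 both were below. Among 25 such shares of 6 other tRNA starts, 28% were above and 20% below, so the members' counts are near that background. The mean fragment length followed the same ends, with 31.7 and 32.6 nt for Glu-CTC in knockdown, against 32.7 and 32.6 nt in wild type, and 33.6 and 34.1 nt for Lys-CTT, against 34.3 and 34.1 nt. For His it was 30.4 and 30.1 nt, against 30.9 and 30.8 nt (exact permutation test, p = 0.33), and this difference changed sign when only reads of 30 nt or more were kept.

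Most fragments began at base 1 of the gene, except for Lys-TTT in knockdown replicate 1, with 42.9%. In the other libraries Lys-TTT had 52.7% to 63.5%. Of the Glu-CTC reads anywhere in the tRNA, 92.7% and 96.8% began at base 1 in knockdown, against 86.4% and 89.2% in wild type. For Lys-CTT it was 57.5% and 68.8% in knockdown and 57.9% and 66.2% in wild type, with most of the rest beginning at bases 2 to 5. For His, 67.4% and 68.1% in knockdown and 70.6% and 68.8% in wild type began at base 1 of the gene. In the mature tRNA-His that base follows the added guanosine. Reads that ended with the 3' CCA numbered at most 23 per library for Lys-CTT and 0 for the other 6 tRNAs, in a table with lengths up to 47 nt. The CCA is added after transcription and is not in the genes, and the member sequences are nearly all exact gene matches, so the count of such reads says little about 3' fragments. Reads of Asp that began at base 32 or later made 8.55% and 18.8% in knockdown, against 17.4% and 11.2% in wild type.

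Summed over the 7 tRNAs, the same starts at 18 to 24 nt had 140 and 31.1 RPM in knockdown, against 211 and 121 RPM in wild type. Val gave most of them, with 120 and 25.05 RPM in knockdown, against 189 and 94.3 RPM in wild type. For Lys-TTT they had 9.77 and 1.83 RPM in knockdown, against 12.4 and 18.4 RPM in wild type, which is more than its reads of 25 nt or more in knockdown replicate 1 and wild type replicate 2. Among 800 other ncRNA starts with a mean of at least 10 RPM, the 3 whose log2 RPM, centred over the 4 libraries, was most like that of the 7 tRNAs summed differed from it by root mean squares of 0.13 to 0.14. Of these, 1 is a tRNA-Gly-GCC start shifted by 1 base, 1 lies in 16 small nuclear RNA genes of GENCODE, and 1 was matched to no transcript. Of the 7 tRNAs, Glu-CTC itself, which makes up most of the sum, differed from it by 0.14 and Asp by 0.84.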

How the data were processed

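Small RNA libraries of 4 mouse testes were analysed from 1 table deposited by the authors, with 1 line per sequence, library and annotation. Its read counts are raw counts made by the authors, per the file itself. The ratio in another column, deposited by the authors, equals 1000000 divided by mature miRNA reads in each library and was used as an alternative. The submitters' processing notes name cutadapt, an adaptor trimmer, and the build mm39. Per the labels' protocol, libraries with inserts from 18 to 40 bases were kept. Aligner and allowed mismatches: not given in the sources used here. Each sequence was counted once per library (6208912 pairs of 12700077 lines).

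Only tRNA genes without introns were searched for. They were found in GRCm39, the same build as mm39, by their B box and cloverleaf pairing, and named by anticodon (338 genes). RefSeq names 80 genes of the 7 tRNAs, against 71 found here. The near totals hide mismatches in both directions. RefSeq names 24 genes of Lys-CTT, against 13 found, and 2 of Lys-TTT, against 9 found. Starts and sequences were tested with edgeR 4.0.16 in R 4.3.3 (at least 1 RPM in 2 libraries, Benjamini-Hochberg adjustment). DESeq2 1.42.0, with its own scaling, was an alternative, and the fits were tested on simulated data. The fitted biological coefficient of variation was 0.697 for starts and 0.855 for sequences, a spread at which a count of 0 calls does not show that levels were alike. SEs were derived from the log2 fold change and the F statistic. Shares and mean lengths were compared by exact two-sided permutation. Named were all 7 tRNAs, the main form of each and forms with 10% or more of its reads. Members, lists and tests were chosen with earlier results of these data known. Replicate libraries differed beyond sampling noise (chi-square over its degrees of freedom 43.1 for knockdown, 4.81 for wild type). The sequence and gene position of tRNA-Glu-CTC are not reported here.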

Additional observations from a re-analysis of the deposited data

How the results depend on the processing

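Log2 fold changes and differences are knockdown minus wild type. Over results and settings that keep all 4 libraries, 197 values were recomputed. Of these, 172 kept their direction, and their side of the threshold where one applied, and 22 changed sign, none of them called. Shares and mean lengths were judged by sign alone. Taking any annotation class, or matching only the first 15 bases, reuses nearly the same member reads, so little change was possible there. Scaling had the widest reach. With TMM factors and with DESeq2, the log2 fold changes were 1.78 and 1.85 for Glu-TTC, 1.55 and 1.61 for Val, 1.23 and 1.29 for Lys-CTT, 0.70 and 0.77 for Lys-TTT, and 0.64 and 0.69 for Asp, all opposite in sign to the scaling by all counted reads. DESeq2 called 10 starts and gave Glu-CTC 2.58. With reads of 30 nt or more, His had -0.18, and the mean lengths of Val, His and Asp differed by -0.087, 0.33 and 0.12 nt. Counting 3' ends within 1 nt of the main length, the shares of Glu-CTC and Val differed by -10.6 and 5.76 percentage points. Counting each distinct sequence once, the mean lengths of Glu-CTC and Glu-TTC differed by 0.47 and 0.19 nt. The 34 nt Val form had 0.15 with total reads as library size, 0.11 with DESeq2, 0.085 with a filter of 10 CPM and 0.47 with the replicate block. The cause of these changes was not tested. With the replicate block 907 starts were called, all lower, against 0 without it, and none of the 7 tRNAs; over sequences it called 0. Deviations of equal numbers correlated at 0.04. This rests on a single pair of library differences, so it cannot show whether libraries of equal number share a litter or day. The labels give neither.

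Leaving out 1 library leaves a lone sample that is assumed to vary like the other group. The starts called ranged from 0 to 59, the highest without knockdown replicate 1. The sequences called were 9347 without knockdown replicate 1, 13230 without knockdown replicate 2 and 0 without either wild type library. Log2 fold changes ranged from -0.026 to 1.02 for Glu-CTC, -1.85 to 0.30 for Glu-TTC, -0.72 to 0.56 for Val and -0.92 to 1.03 for His. Single forms of Glu-CTC ranged from -0.046 to 1.81 (33 nt), -1.83 to -0.27 (34 nt) and 1.59 to 2.22 (31 nt), and both 33 nt forms of Glu-TTC from -2.55 to 0.33 and -2.39 to 0.50. Those of Val ranged from -0.72 to 0.50 (32 nt) and -0.72 to 1.85 (34 nt), and those of His from -1.45 to 0.50 (31 nt), -0.28 to 4.23 (26 nt) and -1.23 to 0.45 (30 nt). Those of Lys-CTT ranged from -1.30 to 0.24 (34 nt), -1.44 to 0.27 (35 nt, G at base 29) and -1.10 to 0.0017 (32 nt). Without knockdown replicate 2, edgeR called the 31 nt and 34 nt forms of Glu-CTC, both Glu-TTC forms, the 35 nt (A at base 29) and 36 nt forms of Lys-CTT and the 31 nt form of Lys-TTT, and without knockdown replicate 1 the 26 nt form of His and the 31 nt form of Lys-TTT. Main length shares ranged from -0.76 to 12.6 percentage points for Lys-CTT and -0.83 to 12.6 for Lys-TTT. Mean lengths ranged from -0.50 to 0.14 nt for Glu-TTC, -0.045 to 0.29 for Val, -1.21 to 1.40 for Lys-TTT and -0.59 to 0.34 for Asp. The leave-one-out values for the shares and ratios of Glu-CTC and Lys-CTT in the text, added after the data were seen, kept their sign. Depth limits Lys-TTT most, with 33 to 141 reads per library.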
